A study of Mus musculus with 8 samples.

Results

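The enzymes that write, read and erase marks on histones and DNA were followed here as 10 genes named for their roles in germinal center B cells: Ezh2, Suz12, Eed, Kmt2d, Crebbp, Ep300, Dnmt1, Uhrf1, Tet2 and Kdm1a. Members were taken by symbol from the deposited count table, and all 10 were found among its 24259 gene symbols. The study asked how losing 1 copy of Bcl6 in helper T cells alters T cell help, and these libraries hold the B cells that received the help. Recipients were CD45.1 Sap-/- mice, whose own T cells lack the adaptor needed for durable contacts with B cells, and the labels give the strain as C57BL/6. They were given OT-II T cells, which carry a receptor for an ovalbumin peptide, from Cd4-cre × Bcl6fl/+ donors (HET, 4 libraries) or from Cd4-cre donors with both Bcl6 copies (WT, 4 libraries). Both groups therefore shared the Cre transgene, which is active in T cells, and the Sap deficiency of the host. On day 3 after immunisation with NP-OVA and LPS in alum, NP+ IgD-low B220+ B cells were sorted from draining lymph nodes at about 200 cells per library. The 4 libraries of a group were sorted from cells pooled over recipients, so p-values measure the spread between sorts of pooled cells, and any difference between the pools cannot be told apart from that between the groups. The sequenced B cells carried no Bcl6 deletion, so no targeted gene could be checked in them.

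In textbook terms, EZH2 methylates lysine on histone H3 as the catalytic subunit of Polycomb repressive complex 2 (PRC2), and SUZ12 and EED are the subunits without which it does not work. KMT2D methylates histone H3 at enhancers and CREBBP and EP300 acetylate histones there, while KDM1A (LSD1) removes methyl groups. DNMT1 copies DNA methylation onto the new strand after replication, UHRF1 brings it to hemimethylated sites, and TET2 oxidises methylcytosine. Germinal center B cells depend on several of these enzymes, and EZH2, KMT2D, CREBBP and TET2 are mutated in lymphomas that arise from such cells.

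UHRF1 and DNMT1 work on newly replicated DNA, and E2F factors are known regulators of replication genes, so the members' promoters were searched for E2F words, a choice made with the Uhrf1 values known. The 250 bases before each RefSeq start site (GRCm38.p6) were read for all 10 members, which have 13 start sites in that table. The words TTTGGCGC, TTTCCCGC, TTTGCCGC and TTTCGCGC, on either strand, were found at 3 of the 13 windows, 1 each of Uhrf1, Dnmt1 and Suz12. Of all 32851 windows listed, 1.86% held such a word, and of the 11302 windows of tested genes 3.41% did. The members' windows were richer in G and C, with a median of 67.6% against 52.4% for all windows, and every E2F word holds a CG. The part of base composition in these counts was not tested. The 250-base window of Uhrf1 (chr17:56304063-56304312, plus strand) lies within the gene span and off its annotated exons, upstream of the second listed start, and the sites of Dnmt1 (chr9:20952824-20952853, minus strand, within an annotated exon) and Suz12 (chr11:79992876-79992905, plus strand, upstream of the gene) are shown as 30 bases. They are shown because they are the only members' windows with the word, and capitals mark it.
Uhrf1: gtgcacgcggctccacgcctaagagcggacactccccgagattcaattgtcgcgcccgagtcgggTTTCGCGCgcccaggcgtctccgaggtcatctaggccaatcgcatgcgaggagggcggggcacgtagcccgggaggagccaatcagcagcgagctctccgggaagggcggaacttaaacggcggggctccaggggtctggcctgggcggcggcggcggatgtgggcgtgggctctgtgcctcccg
Dnmt1: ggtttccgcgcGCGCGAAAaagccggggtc
Suz12: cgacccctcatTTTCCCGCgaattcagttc
The Uhrf1 word begins 185 bases before the start site, and those of Dnmt1 and Suz12 each begin 219 bases before theirs. In Dnmt1 the capitals are TTTCGCGC read on the other strand. Of the other words searched on both strands, CCAAT was in windows of 5 members (33.8% of all windows), the cell cycle homology words TTTGAA and TTCGAA were in those of 3 (17.1%), and the cAMP response element TGACGTCA was in none (1.55%). These are matches of letters and not measurements of binding.

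Total counts ran from 6652386 to 12559189 per library, so that 3 counts correspond to 0.241 to 0.455 CPM (a gene's reads scaled to a common library size, with TMM factors). Over 12744 genes, the edgeR quasi-likelihood test called 3 at an adjusted p under 0.05, all lower in HET. DESeq2 called 95 of the 24064 genes with a p-value, of which 10230 had no adjusted p. The 7 B cell markers were present throughout and summed to 10297 to 11498 CPM in HET and 12048 to 12979 CPM in WT. All 7 were lower in HET, 6 of them at an unadjusted p under 0.05 in edgeR (7.22% of all genes). Of the 7, 4 did not overlap between groups (4.61% of all genes). No B cell marker passed the adjusted threshold in edgeR and 1, Cd22, did in DESeq2. The 9 T cell markers summed to 297 to 532 CPM in HET and 153 to 400 CPM in WT, with none at 0 in every library and Cd4 too low to be tested, and all 8 tested were higher in HET (median log2 fold change 0.56), none at an unadjusted p under 0.05. The 8 myeloid markers summed to 14.8 to 51.0 CPM in HET and 20.4 to 423 CPM in WT, WT replicate 2 being the highest, and 6 of the 8 were at 0 in some library. Of the 5 tested, 4 had a negative value (median -1.10), 1 of them, Csf1r, at an unadjusted p under 0.05. In bulk libraries fewer cells of a type and less RNA per cell cannot be told apart.

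The members differed widely in level. Levels between genes are given as CPM per kb of the longest GENCODE transcript, a scale chosen after the data were seen, because the deposited TPM rest on gene lengths that departed from those transcripts by 0.265-fold for Kmt2d to 3.06-fold for Ezh2, relative to the median gene. On this scale Eed was highest, with 42.2 ± 5.87 in HET and 37.6 ± 4.01 in WT (SD, n = 4 each). Ezh2 followed with 22.9 ± 4.48 and 19.2 ± 3.08, and Uhrf1 with 23.4 ± 4.55 and 12.8 ± 7.67. A middle group held Dnmt1, Crebbp, Kdm1a, Kmt2d, Suz12 and Ep300, with means over the 8 libraries falling from 10.6 to 6.14. Tet2 was lowest, at 2.90 ± 1.28 in HET and 3.41 ± 0.36 in WT.

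**Figure D1:**
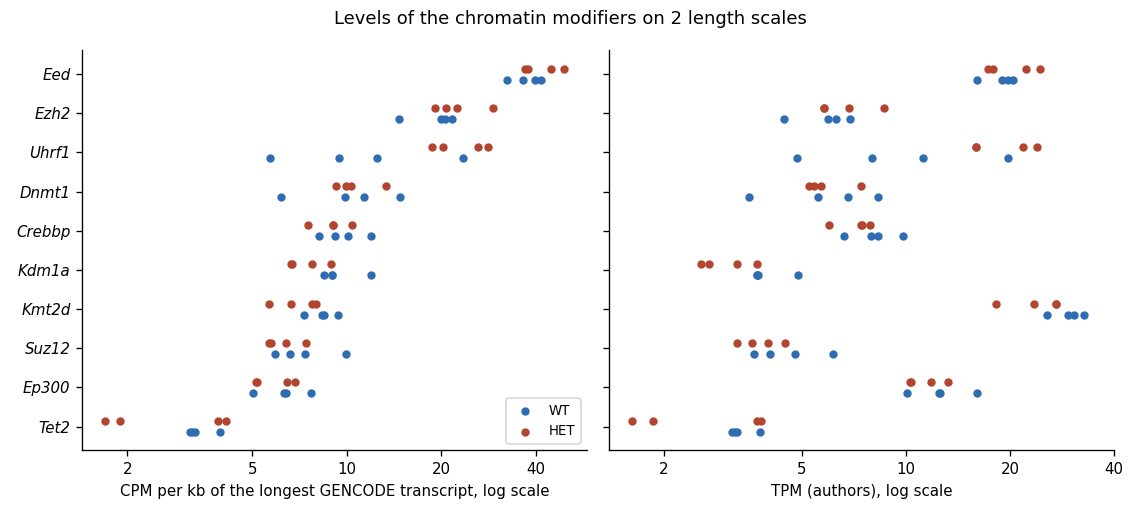
Levels of the 10 members per library (points, HET and WT coloured apart) on a log axis, left as CPM per kb of the longest transcript and right as the authors' TPM. Eed is highest and Tet2 lowest on the left, while Kmt2d moves from rank 7 on the left to rank 1 on the right.

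Among neighbours in this order, library ranges were separate only between Eed and Ezh2 and between Ep300 and Tet2, where all 8 libraries kept the order. The other neighbours overlapped, with 5 to 7 of the 8 libraries in order. In the authors' TPM the order changed: Kmt2d was first with a mean of 26.8 TPM, followed by Eed with 19.6 TPM, and Ep300 rose from rank 9 to rank 4. Ezh2 fell from rank 2 to rank 6. Tet2 was last on both scales and Uhrf1 had rank 3 on both, but the order of the other genes, the highest included, depended on the gene length used. The plot of levels per length shows both scales.

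None of the 10 members passed the adjusted threshold between HET and WT in edgeR or in DESeq2. In edgeR 0.0235% of all genes tested were called. At an unadjusted p under 0.05 there was 1 member, Uhrf1, in either tool. Of all genes 7.22% reached this level in edgeR, and 1360 of the 24064 with a p-value did in DESeq2. No member's libraries were fully separate between groups, against 4.61% of all genes. Of the members 4 were higher and 6 lower in HET, with log2 fold changes from -0.35 to 0.87 and a median of -0.12, beside a median of -0.0014 and quartiles of -0.22 and 0.23 over all genes.

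**Figure D2:**
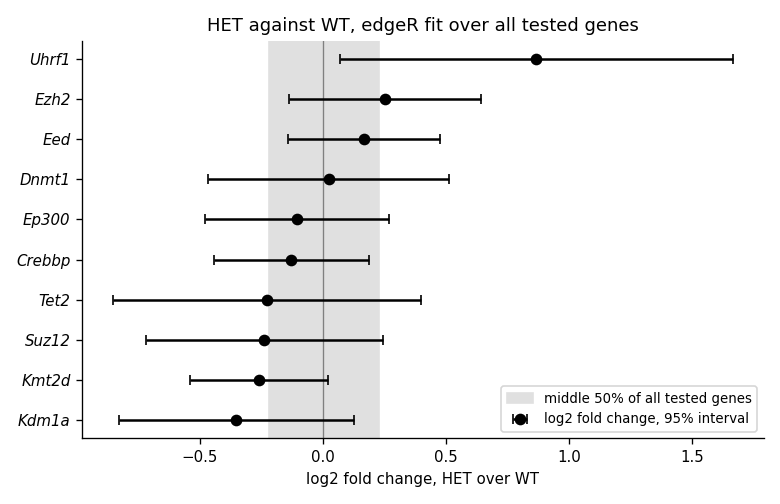
Log2 fold change of HET over WT for each member, with its 95% confidence interval from the edgeR fit, over a grey band that spans the quartiles of all genes tested. The interval of Uhrf1 lies above 0 and the other 9 include 0, and no member passed the adjusted threshold.

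The spread between libraries was wider than counting of reads alone gives. The part of sampling cells or molecules before amplification in this spread was not tested. Each member had 103 to 1779 counts in a library. At the mean count of each member in each group, counting alone gives a coefficient of variation of 2.52% to 7.30%. For a library with fewer counts than its group's mean it is larger. The observed coefficients within a group were 10.1% to 60.0%.

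Of the PRC2 subunits, Ezh2 (ENSMUSG00000029687, GRCm38 chr6:47530139-47595341, minus strand) was at 57.7, 62.7, 53.2 and 81.6 CPM in HET replicates 1 to 4 and at 55.5, 57.4, 60.3 and 41.0 CPM in WT replicates 1 to 4. The groups overlapped, and the extremes were HET replicate 4 at the top and WT replicate 4 at the bottom. Its log2 fold change was 0.25 ± 0.18 (SE), with a 95% interval from -0.14 to 0.64 and an adjusted p of 0.817. Eed (chr7:89954654-89980983), the subunit that binds the methylated histone tail, was at 78.1, 101.9, 92.3 and 76.4 CPM in HET and 85.9, 82.2, 75.5 and 67.0 CPM in WT. Its libraries also overlapped, with a log2 fold change of 0.17 ± 0.14, an interval from -0.14 to 0.47 and an adjusted p of 0.853. Suz12 (chr11:79993106-80034123), the scaffold subunit, was at 24.8, 28.1, 25.2 and 32.5 CPM in HET and 28.9, 43.5, 32.2 and 25.8 CPM in WT. The highest Suz12 value was WT replicate 2, and the log2 fold change was -0.24 ± 0.22, with an interval from -0.72 to 0.24 and an adjusted p of 0.870, and it was -0.07 without WT replicate 2. The 3 subunits thus had no shared sign, and each interval included 0.

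**Figure D3:**
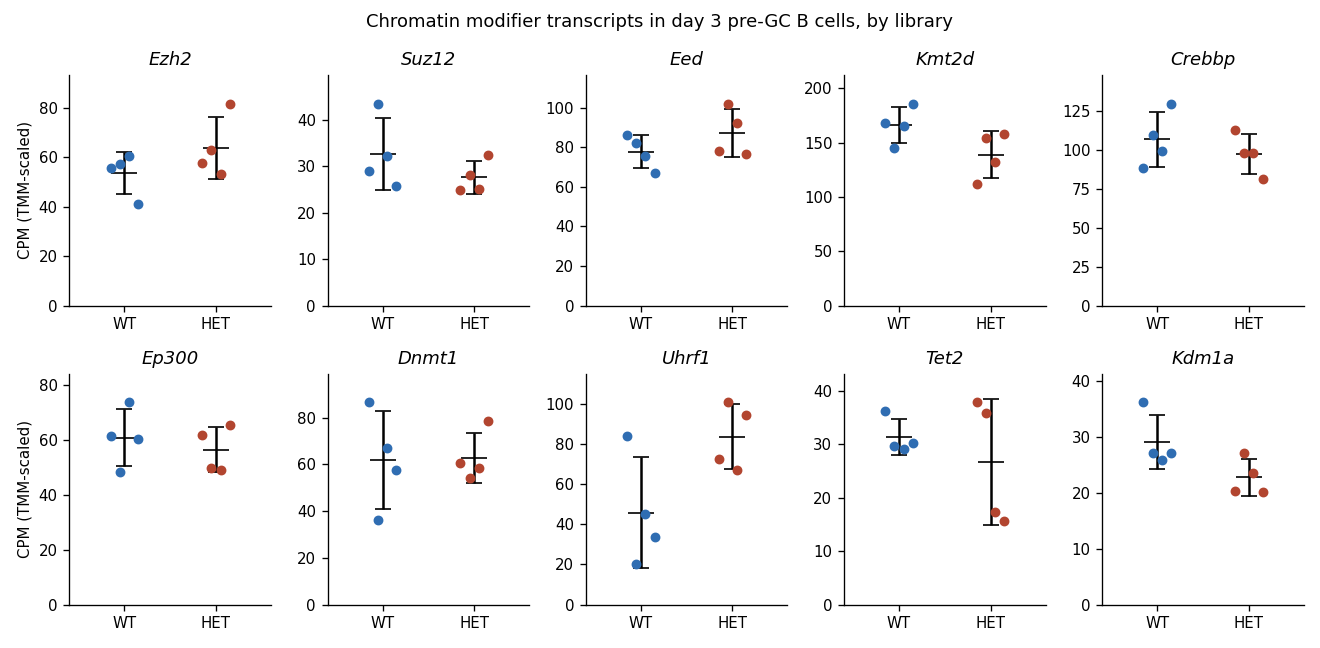
CPM (TMM-scaled) of the 10 members, 1 panel each, with every library as a point (replicates 1 to 4 from left to right) over the group mean ± SD (n = 4). HET and WT overlap in every panel, and in the Uhrf1 panel WT replicate 1 at 84.3 CPM stands within the HET range of 67.1 to 100.8 CPM.

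Kmt2d (chr15:98831669-98871204), the enhancer methyltransferase, was at 111.8, 153.8, 132.1 and 158.0 CPM in HET and 168.4, 144.9, 165.5 and 185.7 CPM in WT. The HET libraries lay lower on average, with 138.9 ± 21.3 against 166.1 ± 16.7 CPM (SD, n = 4 each), but WT replicate 2 lay among them. Its log2 fold change was -0.26 ± 0.13, with an interval from -0.54 to 0.02, an unadjusted p of 0.0679 in edgeR and an adjusted p of 0.716. Crebbp (chr16:4081328-4213997) was at 112.9, 97.8, 97.8 and 81.6 CPM in HET and 88.4, 109.6, 99.4 and 129.6 CPM in WT. This acetyltransferase overlapped between groups in all but its highest WT and lowest HET library, with a log2 fold change of -0.13 ± 0.15, an interval from -0.44 to 0.18 and an adjusted p of 0.896, and without WT replicate 4 it was -0.02. Its paralog Ep300 (chr15:81585351-81652077) was at 61.7, 49.7, 49.1 and 65.5 CPM in HET and 61.3, 48.3, 73.7 and 60.3 CPM in WT. Both ends of the Ep300 range were WT libraries, and the log2 fold change was -0.11 ± 0.17, with an interval from -0.48 to 0.27 and an adjusted p of 0.934, turning to 0.0042 without WT replicate 3.

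Uhrf1 (chr17:56303321-56323486), the reader of hemimethylated DNA, had the largest difference of the members. It was at 72.8, 100.8, 67.1 and 94.3 CPM in HET and at 84.3, 20.4, 44.9 and 33.8 CPM in WT. Of the WT libraries 3 lay below every HET library and WT replicate 1 lay inside the HET range. The means were 83.7 ± 16.3 and 45.9 ± 27.5 CPM, a fitted fold of 1.82 (95% interval 1.05 to 3.17), with an unadjusted p of 0.0359 and an adjusted p of 0.638 in edgeR and an adjusted p of 0.263 in DESeq2. Without WT replicate 1 the log2 fold change rose from 0.87 to 1.34 with an adjusted p of 0.131, and without WT replicate 2 it was 0.62 with an adjusted p of 0.576, and over all 17 settings the adjusted p ran from 0.131 to 0.852. WT replicate 2, the lowest in Uhrf1, was also the library with 423 CPM of myeloid markers, and the part of these markers in the value was not tested.

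Dnmt1 (chr9:20907209-20959888), the methyltransferase that UHRF1 recruits, showed no such difference in mean. It was at 60.5, 54.1, 58.4 and 78.6 CPM in HET and 86.6, 36.3, 66.9 and 57.8 CPM in WT. The WT libraries held both the highest and the lowest value, and their order (replicate 1, then 3, 4 and 2) was that of Uhrf1. In HET the orders differed, replicate 2 being the highest for Uhrf1 and the lowest for Dnmt1. The log2 fold change was 0.02 ± 0.23, with an interval from -0.47 to 0.51, an adjusted p of 0.987, and a sign that turned without HET replicate 4 (-0.10), WT replicate 2 (-0.16) or WT replicate 4 (-0.01). Tet2 (chr3:133463679-133545139), which acts against methylation, was at 37.8, 35.8, 17.4 and 15.6 CPM in HET and 36.2, 29.6, 29.2 and 30.3 CPM in WT. Of the HET libraries 1 lay above the WT range, 1 inside it and 2 well below it, a coefficient of variation of 44.1% against 10.6% in WT, and this difference in spread was not tested. The log2 fold change of Tet2 was -0.23 ± 0.29, with an interval from -0.85 to 0.40 and an adjusted p of 0.909. It was -0.04 without HET replicate 4 and -0.44 without HET replicate 1.

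Kdm1a (chr4:136550540-136602723), the lysine demethylase that works with corepressors, was at 20.3, 27.1, 23.5 and 20.2 CPM in HET and 36.1, 27.1, 25.7 and 27.1 CPM in WT. Of the HET libraries 3 lay below every WT library, and HET replicate 2 lay inside the WT range. Its log2 fold change of -0.35 ± 0.22 was the lowest of the members, with an interval from -0.83 to 0.13 and an adjusted p of 0.791.

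Uhrf1 and Dnmt1 act at replication forks, so the members were set beside a list of 18 S phase genes and 12 mitosis genes. Both lists were chosen with earlier results of these data known. All 18 S phase genes were tested and had positive log2 fold changes (median 0.38), where 49.9% of all genes did, and 6 were at an unadjusted p under 0.05, against 7.22% of all genes. None passed the adjusted threshold in edgeR, while DESeq2 called Rrm2, the small subunit of ribonucleotide reductase (log2 fold change 0.89, adjusted p of 0.0305 in DESeq2 and 0.414 in edgeR). All 12 mitosis genes were also on the positive side (median 0.70), with 3 at an unadjusted p under 0.05 and none called in edgeR. The mitotic cyclin Ccnb2 led them at 1.53, with an adjusted p of 0.0870 in edgeR and 3.3e-05 in DESeq2, the only one of the 12 that DESeq2 called. The 8 tested T cell markers lay on the same side, with a median of 0.56. Neither the part of cycling in the Uhrf1 value nor the part of T cell markers in these lists was tested.

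The summed S phase level was 1370, 1754, 1783 and 2082 CPM in HET and 1580, 1378, 1209 and 1223 CPM in WT. WT replicate 1 had the highest sum of its group, as it had for Uhrf1, and HET replicate 1 the lowest of its own. Other libraries differed: HET replicate 3 was the lowest of its group for Uhrf1. WT replicate 2, next after WT replicate 1 in S phase sum, had the lowest Uhrf1 value. As a share of this sum Uhrf1 was 5.31%, 5.75%, 3.77% and 4.53% in HET and 5.33%, 1.48%, 3.71% and 2.76% in WT. The share thus overlapped between groups, with WT replicate 2 the lowest.

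**Figure D4:**
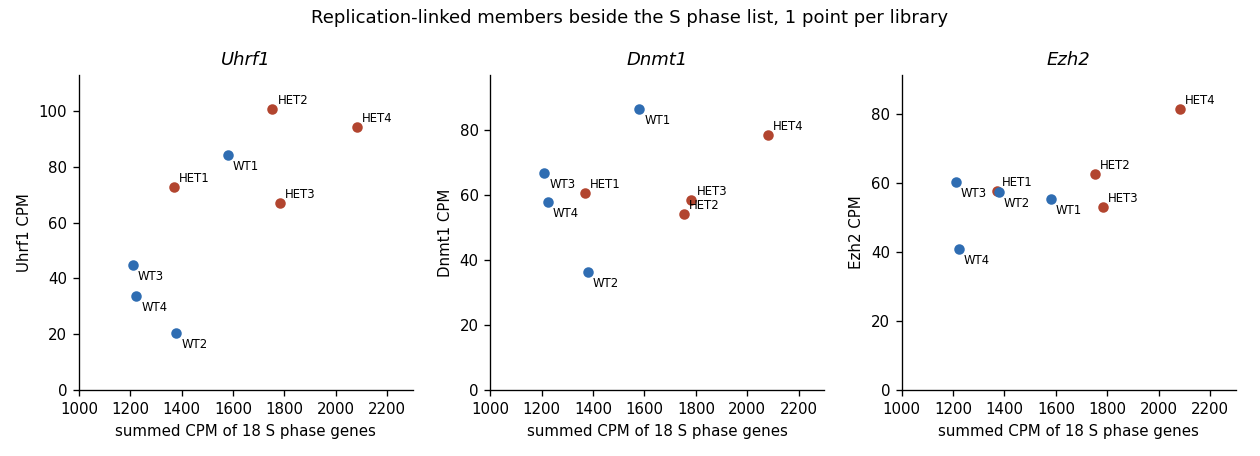
CPM of Uhrf1, Dnmt1 and Ezh2 in each library (y axes) against the summed CPM of 18 S phase genes (x axis), with points named by group and replicate. WT replicate 1 lies with the HET libraries in the Uhrf1 panel, and WT replicate 2 has the lowest Uhrf1 and Dnmt1 values, at 20.4 and 36.3 CPM.

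After removing group means, the members that moved together most over the 8 libraries were Dnmt1 and Uhrf1, with Pearson's r of 0.87. Next came Eed and Kdm1a (0.81), and then Ep300 and Dnmt1 (0.73) and the PRC2 subunits Ezh2 and Suz12 (0.73). The most opposed were Ezh2 and Crebbp (-0.78). These values are a description of 45 pairs over shared libraries and scaling, and they carry no test.

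Genes with the most similar profile over the 8 libraries, without removing group means, were sought among 7093 other genes of moderate or high level. For Uhrf1 these were Cnih1 (r = 0.99) and Dgke (0.98), and for Dnmt1 Zfp961 (0.94) and Clic4 (0.94). For Ezh2 they were Heatr3 (0.97) and Pithd1 (0.94), for Suz12 Tra2a (0.94) and Acadm (0.91), and for Eed Ppp2r5a (0.95) and Cdc42 (0.95). Kmt2d was nearest to Map3k1 (0.98) and Metap1d (0.96), Crebbp to Atp6v1g1 (0.95) and Opa1 (0.91), and Ep300 to Ripor1 (0.98) and Calhm2 (0.97). For Tet2 a near gene was Apbb3 (0.94), and Kdm1a was nearest to Plekho2 (0.93) and Cnpy3 (0.90). None of these genes was in the S phase list. With 2 genes sought per member among 7093, absence from that short list was likely from the outset. Each r is the highest of many, and these likenesses carry no test.

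The balance between members and their paralogs or opponents was compared by 4 log2 ratios of TPM, each tested by exact permutation (two-sided, 70 arrangements, smallest possible p 0.0286). PRC2 (Ezh2, Suz12 and Eed summed) over the H3K27 demethylases Kdm6a and Kdm6b was 1.15, 1.43, 1.32 and 1.37 in HET and 1.13, 1.20, 1.23 and 0.621 in WT. The mean log2 ratio was 0.38 higher in HET (exact permutation p = 0.0857, or 0.343 adjusted over the 4 ratios), and without WT replicate 4 by 0.15. In that library Kdm6b was at 101.2 CPM, and the remaining WT libraries had 60.6 to 69.1 CPM. Ezh2, Eed and Suz12 also had their lowest WT values there, at 41.0, 67.0 and 25.8 CPM. Dnmt1 over Dnmt3a and Dnmt3b, the enzymes of new methylation, was 0.799 to 2.08 in HET and 0.904 to 1.68 in WT, a log2 difference of 0.27 (exact permutation p = 0.457, adjusted 0.914) that was 0.05 without HET replicate 4 and 0.51 without HET replicate 3. Ezh2 over Ezh1, the alternative catalytic subunit, differed by 0.12 (exact permutation p = 0.686, adjusted 0.914), and Crebbp over Ep300 by -0.02 (exact permutation p = 1, adjusted 1). Which paralog was the higher depended on length: Ezh2 over Ezh1 ran from 0.559 to 1.32 in TPM and from 1.57 to 3.70 in CPM per kb, and Crebbp over Ep300 from 0.458 to 0.830 and from 1.1 to 1.99. The other two also moved with the length used, PRC2 over Kdm6a and Kdm6b running from 0.621 to 1.43 in TPM and from 2.97 to 7.33 in CPM per kb, where its exact permutation p was 0.257, and Dnmt1 over Dnmt3a and Dnmt3b from 0.799 to 2.08 and from 1.005 to 2.41.

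The complexes around the members were described by 8 lists of partner genes, 93 in all, of which 90 were tested. None was called in edgeR or DESeq2. At an unadjusted p under 0.05 there were 5 in edgeR (5.56%, against 7.22% of all genes). In DESeq2 there were 7, where 1360 of all 24064 genes with a p-value reached this level. By sign 34 were higher and 56 lower in HET, with a median log2 fold change of -0.06.

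**Figure D5:**
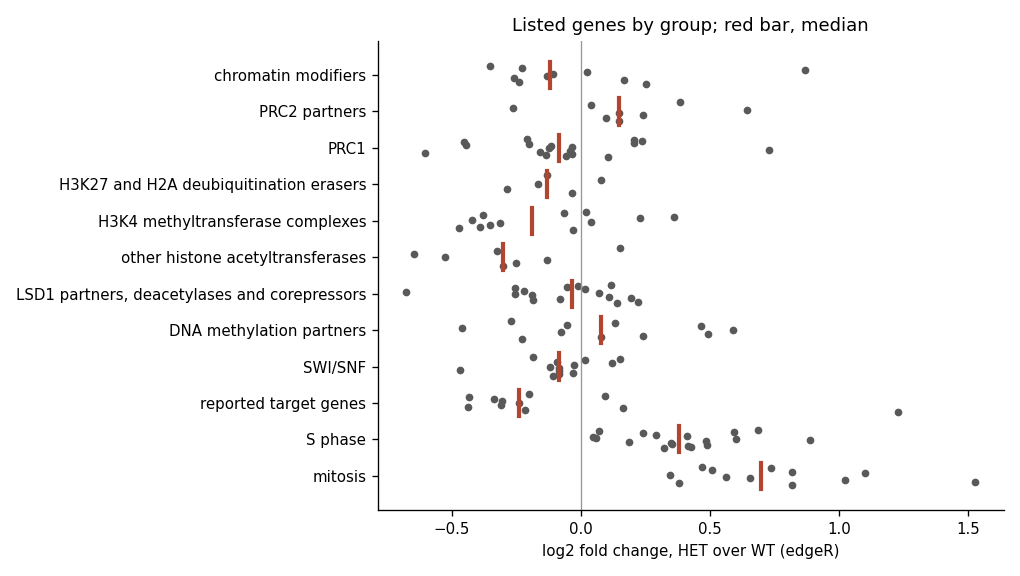
Log2 fold change of HET over WT for each tested gene of the members, the partner lists, the target genes and the cell cycle lists (points) with each list's median (bar). The S phase and mitosis lists lie wholly above 0, and the partner lists lie on both sides of it.

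Of the 8 PRC2 partners 7 had a positive value (median 0.15), led by the cofactor Aebp2 at 21.5 to 30.3 CPM in HET and 12.3 to 20.5 CPM in WT. Aebp2 did not overlap between groups, and neither did 4.61% of all genes. Its log2 fold change was 0.64 with an adjusted p of 0.612, and the histone-binding Rbbp7 had 0.24 with 0.740. Of 18 tested PRC1 genes 13 had a negative value (median -0.09), with Phc3 at -0.45 (adjusted p 0.666) and Pcgf3 at -0.60 (0.840). The 5 erasers of H3K27 and H2A marks had a median of -0.13, with Kdm6b at -0.29 (0.776) and Bap1 at -0.17 (0.892).

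Of 12 tested genes of H3K4 methyltransferase complexes 8 had a negative value (median -0.19). Kmt2c, the paralog of Kmt2d, was at 54.3 to 83.4 CPM in HET and 87.1 to 106 CPM in WT without overlap. Its log2 fold change was -0.39, with an adjusted p of 0.612. Of the 90 partner genes tested only Kmt2c and Aebp2 were without overlap, against 4.61% of all genes. The core subunit Dpy30 had a value of 0.36 (0.693). The 7 other acetyltransferases had a median of -0.30, with Kat7 at -0.33 (0.654) and Kat6a at -0.53 (0.784). Like Kmt2d and both acetyltransferase members, most genes of these lists thus had a negative sign, none past the threshold.

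The 16 tested LSD1 partners, deacetylases and corepressors were balanced, with 7 positive and 9 negative values (median -0.03), among them Hdac8 at -0.68 (adjusted p 0.786) and Hdac2 at 0.20 (0.879). The 11 DNA methylation partners were split 6 to 5 (median 0.08), with the glycosylase Tdg at 0.59 (0.627) and the reader Mbd1 at -0.46 (0.723). Of 13 SWI/SNF genes 10 had a negative value (median -0.08), with Arid2 at -0.47 (0.716) and Brd9 at -0.19 (0.852). In no list of these 3 did a gene pass the adjusted threshold.

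Genes that these enzymes are known to control in B cells were listed as 12 targets, of which 11 were tested and Cdkn2a was too low. Of the 11, 8 had a negative value (median -0.24). Of these, 5 were at an unadjusted p under 0.05 (7.22% of all genes) and without overlap between groups (4.61% of all genes). The list was chosen with earlier results of these data known, so these counts are a description and not a test of the targets. The 3 with a positive value were the cell cycle inhibitor Cdkn1a at 1.23 (adjusted p 0.801 in edgeR), Irf4 at 0.16 (0.918) and Socs3 at 0.09 (0.977), all overlapping between groups. None was called in edgeR and DESeq2 called 3, where it called 95 of all 24064 genes with a p-value. The 5 without overlap were genes of antigen presentation by MHC class II, for which CREBBP is a known coactivator: Cd74, H2-Eb1, H2-Aa, H2-Ab1 and Ciita, the last 3, like the 3 with a positive value, being named after their values were seen. Cd74, the invariant chain, was at 11065, 10785, 11259 and 11680 CPM in HET and 14480, 12618, 14301 and 15157 CPM in WT. Every HET library lay below every WT library, with a log2 fold change of -0.34 and an adjusted p of 0.0770 in edgeR and 0.0087 in DESeq2. H2-Eb1 had -0.31 (0.217 and 0.0456) and the class II transactivator Ciita -0.44 (0.233 and 0.0121). The B cell markers were lower in HET as well, all 7 with a negative value and 4 of them without overlap between groups. Cd22 was at -0.37 (adjusted p 0.220 in edgeR and 0.0159 in DESeq2). The part of the B cell markers in the class II values was not tested. Crebbp itself, at -0.13, overlapped between the groups.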

How the data were processed

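Single sorts of about 200 pre-germinal-center B cells were amplified by SMART-Seq2 and sequenced. Per the labels and methods, the authors aligned reads with Hisat2 to GRCm38 (mm10) and made the deposited gene counts with HTSeq; the annotation release, strand setting and treatment of multimapping reads are not given in the sources used here. The authors also deposited TPM, in which count over TPM is a fixed length per gene. The count and TPM tables hold 24259 and 24232 symbols.

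HET and WT were compared with edgeR 4.0.16 (R 4.3.3; filterByExpr, TMM, robust quasi-likelihood test, Benjamini-Hochberg over 12744 genes, threshold 0.05), which kept 99.7% of counts and was tested on simulated data. DESeq2 1.42.0 and limma 3.58.1 on log2(TPM + 1 or 0.1) were alternatives. Ratios used log2 of TPM with 0.1 added to both sides. Standard errors are the fold change over the square root of F. Positions are from GENCODE M21 and promoters from RefSeq.

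The members and lists were chosen with earlier results of these data known. Named genes were all members, the 2 partner genes per list with the lowest p, and the 2 most similar genes per member (mean log2 CPM of at least 4, prior count 2), of which 1 is not reported here. No pair of libraries in a group agreed within sampling noise. The 95% intervals of fold changes come from the edgeR fit, which takes in the spread between libraries. Levels were planned in TPM; the length-based scale was added after the data were seen.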

Additional observations from a re-analysis of the deposited data

Results flagged for a closer look

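Of 28 sets of 4 libraries examined (the members and the 4 ratios in each group), 3 held a library far from the others of its group, and chance gives about 1 in 20. Tet2 was at 36.2 CPM in WT replicate 1, while WT replicates 2 to 4 had 29.2 to 30.3 CPM. Kdm1a was at 36.1 CPM in the same library, against 25.7 to 27.1 CPM. The log2 ratio of Ezh2, Suz12 and Eed over Kdm6a and Kdm6b was -0.69 in WT replicate 4, against 0.17 to 0.30 in the others.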

How the results depend on the processing

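No member and no partner gene was called under any of the 17 settings, DESeq2 included. The count of all genes called was 3 and became 95 with DESeq2, 38 without a filter, 7 with a mean of at least 50 counts, 0 with limma on either TPM scale (1297 and 1275 genes at an unadjusted p under 0.05), and 1 to 6 on leaving out a library (6 without WT replicate 1). Members at an unadjusted p under 0.05 numbered 1, and 0 without a filter, with a mean of at least 50 counts, or without HET replicate 1 and WT replicate 4 together (chosen after seeing the data), and 0 to 2 on leaving out a library. Without HET replicate 4 the 1 member was Kmt2d (unadjusted edgeR p 0.0384) and not Uhrf1 (0.0661).

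The replicate number did not pair the libraries: deviations of same-numbered libraries correlated at -0.05 to 0.01. With the number as a block 0 genes were called (912 at an unadjusted p under 0.05) and Uhrf1 had a log2 fold change of 1.02 (adjusted p 0.675); sign-flip tests of the ratios cannot go below 0.125.

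On leaving out a library, Ep300 ran from -0.20 to 0.0042 (turning positive without WT replicate 3), Dnmt1 from -0.16 to 0.22 (negative also at -0.10 and -0.01), the Ezh2 over Ezh1 ratio from -0.075 to 0.34, the Crebbp over Ep300 ratio from -0.15 to 0.13 (0.10 and 0.07 in between), the Dnmt1 over Dnmt3a and Dnmt3b ratio from 0.05 to 0.51, and the PRC2 over Kdm6a and Kdm6b ratio from 0.15 to 0.48. The other members kept their sign, Uhrf1 from 0.62 to 1.34, Ezh2 from 0.12 to 0.33, Eed from 0.09 to 0.23, Suz12 from -0.34 to -0.07, Kmt2d from -0.32 to -0.16, Crebbp from -0.21 to -0.02, Tet2 from -0.44 to -0.04 and Kdm1a from -0.44 to -0.23. The median of all partner genes was -0.12 on log2(TPM + 0.1), and leaving out a library gave medians of -0.082 to 0.067 for the LSD1 list, -0.061 to 0.16 for the DNA methylation list and -0.15 to 0.0021 for the PRC1 list, whose signs thus turned. The cause of these changes was not tested. Members had at least 103 counts in a library. Their spread between libraries was wider than counting of reads alone gives, and what set it was not tested.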
